A study of Mus musculus with 6 samples.

Results

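Type I interferon-stimulated genes were examined in the light-damaged mouse retina. A list of 39 gene symbols defined the set, which was looked up among the 23420 genes of the count table, and all 39 were present. Total retinal RNA had been sequenced in 6 libraries, 2 from untreated control retinas, 2 from retinas taken 4 days after 1 h of light at 10000 lux, and 2 from retinas of mice that received the same light and a daily intraperitoneal injection of minocycline, a tetracycline antibiotic, at 45 mg/kg for 4 days. All mice carry the strain label CD1, whereas the methods of the study name BALB/cJ mice, another light intensity and another RNA kit and give another course of minocycline, begun before the light and with more frequent injections at first, and no genetic change is given for any group. The labels do not give age, sex or whether retinas were pooled, and no group of mice received minocycline without light.

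Interferons are secreted alarm proteins of the antiviral defence. Type I interferons, which are the IFN-alpha proteins, IFN-beta and their relatives, bind a receptor made of IFNAR1 and IFNAR2, and the kinases JAK1 and TYK2 then activate signalling proteins such as STAT2. STAT2 joins IRF9 in a complex that binds a DNA element in front of its target genes, the interferon-stimulated response element (ISRE). The targets sense foreign nucleic acids, degrade RNA, block translation or hold back viral particles, and many of them are sensors and signalling proteins of the same pathway. In the retina, microglia, which are its resident macrophages, are known as a cell type that responds to interferon.

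RefSeq promoters on GRCm38.p6, each running from 250 bases before to 50 bases from the start of transcription, were matched for 28 of the 39 genes, in 33 windows since some genes have several starts. An ISRE core, searched as GAAA, any 2 bases and GAAA on both strands, was found in 42.4% of these windows and in 3.44% of all 32851 promoters. A second element, the gamma-activated site, searched as TTC, any 3 bases and GAA, which reads the same way on both strands, was in 15.2% of the windows and in 8.3% of all promoters. Of the 28 genes matched, 13 held an ISRE core, 21 cores in all, of which 15 began within 150 bases before the start, and 1 core, in Bst2, overlapped a gamma-activated site. Stat2 held an ISRE core although its level after light was that of control. The windows of 6 genes with an ISRE core and a large fitted change after light are shown to make the element visible. Each gives the 200 bases before the start, 5′ to 3′ on the strand of the gene, with the ISRE cores in capitals. A core on the other strand reads as TTTC, 2 bases and TTTC, and capitals run on where cores overlap. The windows lie at chr12:26456453-26456652 (minus strand) for Rsad2, chr19:34640689-34640888 (plus) for Ifit1, chr7:104465194-104465393 (minus) for Trim30a, chr4:156200819-156201018 (minus) for Isg15, chr8:71537473-71537672 (minus) for Bst2 and chr19:34583329-34583528 (plus) for Ifit3.
Rsad2: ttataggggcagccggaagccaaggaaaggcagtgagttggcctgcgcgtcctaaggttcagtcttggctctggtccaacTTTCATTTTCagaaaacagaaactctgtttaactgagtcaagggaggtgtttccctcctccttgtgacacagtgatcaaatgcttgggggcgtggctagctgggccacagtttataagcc
Ifit1: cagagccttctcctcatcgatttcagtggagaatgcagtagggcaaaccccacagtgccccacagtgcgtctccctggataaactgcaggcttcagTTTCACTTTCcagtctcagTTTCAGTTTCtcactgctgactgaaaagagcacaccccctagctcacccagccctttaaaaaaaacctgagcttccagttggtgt
Trim30a: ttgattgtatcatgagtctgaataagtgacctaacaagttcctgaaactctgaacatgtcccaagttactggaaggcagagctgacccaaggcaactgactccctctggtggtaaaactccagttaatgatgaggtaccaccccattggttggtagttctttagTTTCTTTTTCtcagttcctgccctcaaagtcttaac
Isg15: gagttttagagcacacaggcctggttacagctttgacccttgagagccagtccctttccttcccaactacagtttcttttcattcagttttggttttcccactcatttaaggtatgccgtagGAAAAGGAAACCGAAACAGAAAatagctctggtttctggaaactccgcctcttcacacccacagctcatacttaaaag
Bst2: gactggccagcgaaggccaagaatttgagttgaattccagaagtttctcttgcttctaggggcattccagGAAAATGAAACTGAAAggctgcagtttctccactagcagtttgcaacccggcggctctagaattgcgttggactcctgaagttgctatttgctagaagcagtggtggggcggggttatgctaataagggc
Ifit3: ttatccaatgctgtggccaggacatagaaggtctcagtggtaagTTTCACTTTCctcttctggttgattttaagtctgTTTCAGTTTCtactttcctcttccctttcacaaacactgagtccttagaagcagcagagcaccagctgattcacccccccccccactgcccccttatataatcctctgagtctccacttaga
The capitals show 1 core in Rsad2 and in Trim30a, a pair of separate cores in Ifit1 and in Ifit3, 2 overlapping cores in Bst2 and 3 overlapping cores in Isg15. A match of these letters is a description of the sequence and does not show that a factor was bound.

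**Figure D1:**
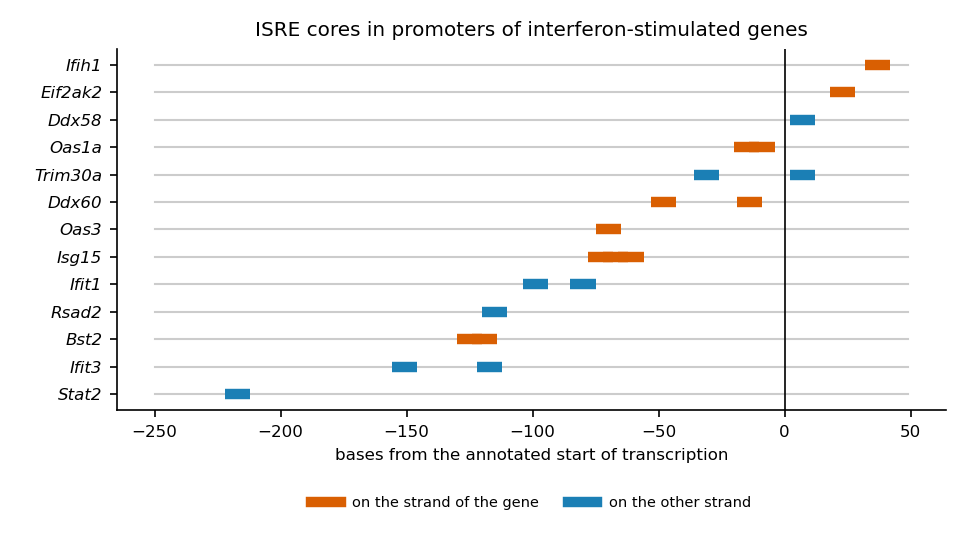
Positions of ISRE cores in the promoters of the 13 interferon-stimulated genes that hold one. The horizontal axis gives bases from the annotated start of transcription, each grey line is a window of 300 bases (the 2 windows of Trim30a share a line), and blocks are cores on the strand of the gene (orange) or on the other strand (blue). Of 21 cores, 15 begin within 150 bases before the start.

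The libraries held 15205930 to 22856922 counts. Rods were present in every library. The summed level of 7 rod genes was 91053 and 71895 CPM in the controls, 53759 and 38006 CPM after light and 78189 and 84126 CPM with minocycline (CPM being counts of a gene relative to the library total, scaled by the TMM factors of edgeR). All 7 had negative fitted changes after light, and Nrl, a transcription factor gene of rods, fell (log2 fold change -0.96 ± 0.24, edgeR adjusted p = 0.0296). Libraries stood apart in several ways. Control library 1 had 77778 counts of Xist and 3 of Ddx3y, whereas the other 5 libraries had 25 to 188 of Xist and 2635 to 4516 of Ddx3y, so the sex of the mice differed among libraries. Both minocycline libraries held keratins and other genes of the corneal epithelium (summed 188 and 265 CPM, against 2.11 to 14.8 CPM in the other 4) and genes of pigment cells (303 and 1378 CPM, against 15.8 to 71.8 CPM). The 2 minocycline columns carry the same name and are called A and B here. Libraries of 1 group differed by more than sampling noise and count as separate samples, and their p-values measure the spread between 2 libraries only. At 3 counts, the limit of detection was 0.131 to 0.213 CPM.

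**Figure D2:**
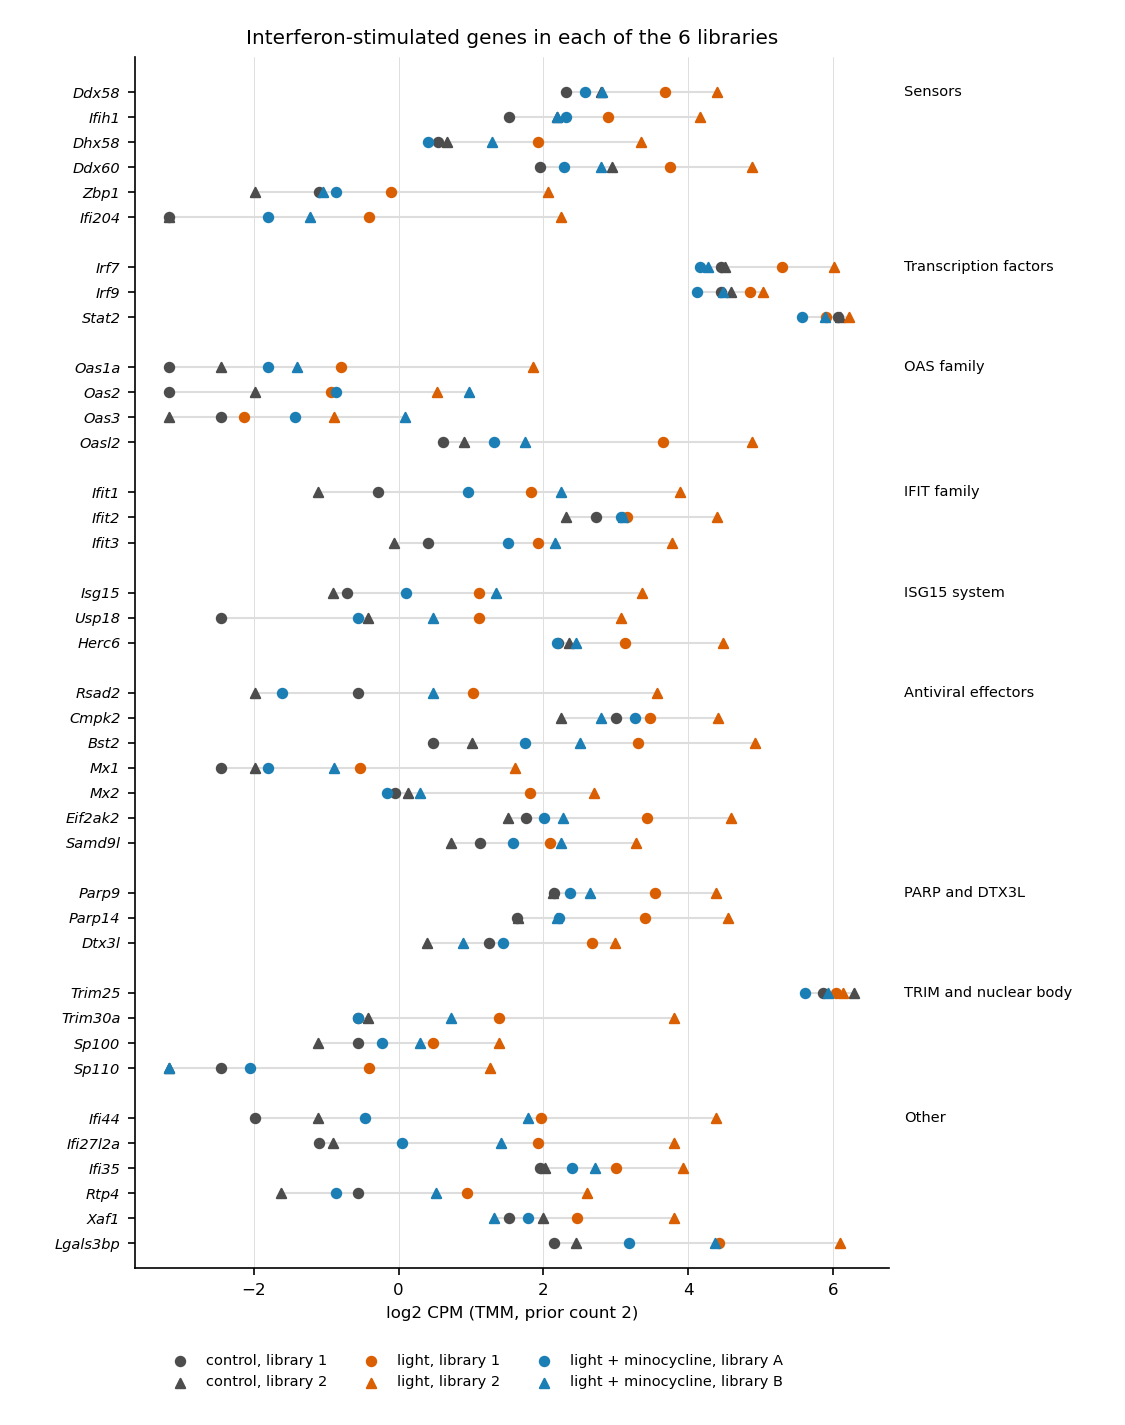
Level of each of the 39 interferon-stimulated genes in the 6 libraries. The horizontal axis gives log2 CPM with a prior count of 2, symbols are single libraries (circles for library 1 or A, triangles for library 2 or B), grey lines span the lowest to the highest library, and genes are grouped by role. Light library 2 lies above light library 1 for all 39 genes, and both light libraries lie above both controls for 37, the exceptions being Stat2 and Trim25.

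Light raised a large part of the set. Of the 39 genes, 35 had enough counts for the test of light against control (all but Oas1a, Oas2, Oas3 and Mx1), and 20 of them rose at an edgeR adjusted p under 0.05 while 0 fell. Of all 14349 genes tested, 7.52% rose and 3.8% fell. With a change of at least 4-fold required in addition, the cutoff of the study, 13 of the 39 rose, beside 2.89% of all genes tested. The median fitted log2 fold change was 2.41 over the 35 genes and 0.00 over all genes tested. Both light libraries exceeded both controls for 33 of these 35 genes, and 30.6% of all genes tested did so. Some low genes entered the test only through their level after light, which favours a difference. In bulk RNA of a tissue, more cells of a type and more RNA per cell cannot be told apart.

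The number of calls differed in fits that left out 1 library. These fits took all remaining libraries together, and a group of 1 library has no spread of its own. The spread then comes from the other groups. The change from the main fit of 4 libraries therefore cannot be put down to the library alone. Without light library 2 only Oasl2 and Bst2 of 37 genes tested were called (0.721% of all genes tested were higher), without light library 1 it was 34 of 39 (7.6%). Without control library 1 or control library 2, 0 of 39 were called at an edgeR adjusted p under 0.05, beside 0.0131% and 0.0392% of all genes tested called higher. At an unadjusted p under 0.05, 33 and 32 were higher, beside 12.1% and 10.8% of all genes tested. The fitted direction held for most genes, with 35 of 37 genes higher without light library 2 and a median log2 fold change of 1.80.

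Among the sensors of viral RNA, the RIG-I-like helicases rose together. Ddx58, which encodes RIG-I, had 68 and 97 counts in the controls, 218 and 442 after light and 135 and 130 with minocycline. It rose by a log2 fold change of 1.54 ± 0.30 (SE, edgeR adjusted p = 0.0166). Ifih1, encoding MDA5, had 39 and 63 counts, 125 and 377 after light and 111 and 84 with minocycline, a rise of 1.81 ± 0.46 (edgeR adjusted p = 0.0434). Scaled to CPM, Ddx58 was at 4.83 and 6.83 in the controls and at 5.88 and 6.89 with minocycline, so these groups overlapped, whereas both light libraries lay above them at 12.7 and 21 CPM. Dhx58, the third helicase of the family, known as LGP2, rose by 2.29 ± 0.50 (edgeR adjusted p = 0.0234), from 19 and 21 counts to 63 and 212, with 28 and 44 counts under minocycline.

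Ddx60, a helicase linked to RIG-I signalling and the sensor with the highest counts, had 53 and 108 counts in the controls, 229 and 624 after light and 109 and 128 with minocycline. The controls lay apart, at 3.77 and 7.61 CPM, and the fitted change of 1.92 ± 0.51 did not pass (edgeR adjusted p = 0.0703). Zbp1, a sensor of Z-form nucleic acids, had 5 and 2 control counts, 14 and 86 after light and 10 and 7 with minocycline, and did not pass (edgeR adjusted p = 0.0641). Ifi204 encodes a DNA-binding protein of the interferon-inducible PYHIN family. It was at 0 counts in both controls, at 11 and 98 after light and at 4 and 6 with minocycline. Against a limit of 3 counts over both controls, light was at least 26.9-fold higher, and at least 6.05-fold higher without light library 2 and 43.8-fold without light library 1, and the fitted change did not pass (edgeR adjusted p = 0.153). All 6 sensors were higher in both light libraries than in both controls, where 30.6% of all genes tested were.

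The transcription factors of the pathway behaved unequally. Irf7, the factor that amplifies interferon production, had 309 and 321 control counts and rose to 673 and 1354 after light, a log2 fold change of 1.22 ± 0.23 (edgeR adjusted p = 0.0156). With minocycline it had 408 and 363 counts, and at 18.5 ± 1.04 CPM (SD, n = 2) it was below the control level of 22.3 ± 0.453 CPM. Stat2 and Irf9, which encode parts of the complex that binds the ISRE, showed no such rise. Stat2 had 945 and 974 counts in the controls, 1021 and 1579 after light and 1090 and 1116 with minocycline, or 67.2 and 68.6, 59.6 and 75, and 47.4 and 59.1 CPM. Its light libraries lay on either side of the controls (log2 fold change -0.01 ± 0.16, edgeR adjusted p = 0.983), and the sign of this value changed with the scaling. Irf9 had 21.9 and 24 CPM in the controls, 28.7 and 32.7 after light and 17.4 and 22.3 with minocycline, a change after light of 0.42 ± 0.17 that did not pass (edgeR adjusted p = 0.136).

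The OAS family synthesizes short oligoadenylates that switch on an RNA-degrading enzyme. Oasl2, an OAS-like gene, had the lowest adjusted p of the set. It had 20 and 25 counts in the controls, 213 and 620 after light and 55 and 61 with minocycline, which corresponded to 1.59 ± 0.24, 20.9 ± 12 and 2.81 ± 0.593 CPM (SD, n = 2). The groups did not overlap, light raised it by a log2 fold change of 3.72 ± 0.46 (edgeR adjusted p = 0.00924), and the minocycline libraries remained between control and light.

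Oas1a, Oas2 and Oas3 were near the limit of detection in the controls and were not tested after light. Oas1a had 0 and 1 control counts, 8 and 74 after light and 4 and 5 with minocycline, so the light libraries together were 60.7-fold higher (95% counting interval 10.6 to 2427), and 13.2-fold without light library 2 and 99.3-fold without light library 1. Oas2 had 0 and 2, then 7 and 28 after light, but 10 and 35 with minocycline. Oas3 had 1 and 0, then 2 and 9 after light, and 6 and 18 with minocycline. For Oas2 and Oas3, minocycline library B thus held more counts than either light library, the opposite of the other genes of the family, and against control the ratio with minocycline was 15.2 (95% counting interval 3.97 to 129) for Oas2 and 16.2 (2.64 to 667) for Oas3. Without library B these ratios were 6.15 and 7.38, and without library A 26.2 and 27. These intervals cover counting error only. On the test of minocycline against light, Oas2 had a log2 fold change of 0.36 ± 0.82 (edgeR adjusted p = 0.845), and Oas3 had too few counts. Oas2, Oas3 and Oas1a lie in the same cluster on chromosome 5, where closely related copies can share reads, so their separate counts are uncertain.

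The IFIT proteins bind foreign RNA and block its translation. Ifit1 had 10 and 5 counts in the controls, 59 and 309 after light and 42 and 88 with minocycline. Light raised it by a log2 fold change of 4.09 ± 0.89 (edgeR adjusted p = 0.0463). Ifit3 went from 17 and 12 counts to 63 and 286 after light, a rise of 3.07 ± 0.69 (edgeR adjusted p = 0.0381), and had 63 and 82 with minocycline. In CPM, minocycline library B exceeded light library 1 for both genes, with 4.66 against 3.45 CPM for Ifit1 and 4.34 against 3.68 CPM for Ifit3, so that the minocycline and light groups overlapped. Ifit2, the family member with the highest counts, had 92 and 69 in the controls, 150 and 441 after light and 190 and 160 with minocycline, and its change after light of 1.39 ± 0.42 did not pass (edgeR adjusted p = 0.0701). The 3 genes lie on chromosome 19 between positions 34550694 and 34650009 of GRCm38, among further copies of the family that can share reads.

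ISG15 is a ubiquitin-like protein that is attached to other proteins. Isg15 itself had 7 and 6 counts in the controls, 35 and 214 after light and 22 and 46 with minocycline. Its fitted change of 3.72 ± 0.90 missed the threshold (edgeR adjusted p = 0.0535), and minocycline library B, with 2.44 CPM, lay above light library 1, with 2.04 CPM. Usp18, the enzyme that removes ISG15 and restrains the interferon receptor, had 1 and 9 control counts, 35 and 175 after light and 13 and 24 with minocycline (log2 fold change after light 3.86 ± 1.04, edgeR adjusted p = 0.0765). Herc6, a ligase that attaches ISG15 in the mouse, rose by 1.71 ± 0.44 (edgeR adjusted p = 0.0476). It went from 63 and 71 counts to 148 and 467, and with minocycline it had 102 and 101 counts, or 4.90 ± 0.645 CPM against 4.74 ± 0.369 CPM in control (SD, n = 2).

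Of the 7 antiviral effectors, 6 were tested and 4 rose, where 7.52% of all genes tested did. Bst2, encoding tetherin, which holds budding virus at the cell surface, went from 18 and 27 counts to 168 and 640, and with minocycline had 75 and 105. Its log2 fold change after light was 3.66 ± 0.66 (edgeR adjusted p = 0.0322), and per kilobase of exon it was the highest of the 39 genes after light, at 22.3 CPM per kilobase, from 1.76 in control. Eif2ak2, which encodes the RNA-dependent kinase PKR, went from 46 and 39 counts to 182 and 506 and had 90 and 89 with minocycline (change after light 2.53 ± 0.40, edgeR adjusted p = 0.0132). Samd9l, an antiviral restriction factor, rose by 1.93 ± 0.45 (edgeR adjusted p = 0.0257), from 29 and 22 counts to 71 and 202. With minocycline it had 66 and 87, and library B again lay above light library 1 in CPM (4.61 against 4.15).

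The Mx genes encode GTPases that trap viral components, and many laboratory strains carry a defective Mx1. Mx2 rose by 2.41 ± 0.45 (edgeR adjusted p = 0.014), from 12 and 14 counts to 58 and 135, and had 18 and 21 with minocycline. Mx1 had 1 and 2 control counts, 10 and 62 after light and 4 and 8 with minocycline, a ratio of light to control of 17.8 (95% counting interval 5.84 to 88.2) that was 5.5 without light library 2 and 27.7 without light library 1. Rsad2, encoding viperin, and the nucleotide kinase gene Cmpk2 lie head to head on chromosome 12 with starts 12752 bases apart. Rsad2 had 8 and 2 control counts, 33 and 247 after light and 5 and 24 with minocycline, and its change after light of 4.26 ± 1.24 did not pass (edgeR adjusted p = 0.111). Cmpk2 had 112 and 66 counts, 188 and 449 after light and 219 and 128 with minocycline (1.36 ± 0.38, edgeR adjusted p = 0.0525). For Rsad2 minocycline library A lay between the controls, whereas for Cmpk2 it lay above both.

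PARP9 and DTX3L form a ubiquitin ligase complex, PARP14 is a related ADP-ribosyltransferase, and the genes of all 3 rose. Parp9 had 61 and 61 counts in the controls, 197 and 437 after light and 116 and 116 with minocycline, a rise of 1.91 ± 0.32 (edgeR adjusted p = 0.0112). Parp14 had 42 and 43 counts, 179 and 492 after light and 104 and 84 with minocycline, a rise of 2.50 ± 0.39 (edgeR adjusted p = 0.0124). Dtx3l rose by 2.02 ± 0.39 (edgeR adjusted p = 0.0152), from 32 and 17 counts to 107 and 165, and had 60 and 33 with minocycline. Dtx3l and Parp9 overlap head to head on chromosome 16, with starts 681 bases apart on opposite strands, and as the use of strand in counting is not stated, reads of the overlap may not have been told apart.

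Trim25, the ligase that activates RIG-I, stood with Stat2 as an exception. It had 814 and 1117 counts in the controls, 1136 and 1485 after light and 1123 and 1156 with minocycline, or 57.9 and 78.7, 66.4 and 70.5, and 48.9 and 61.2 CPM. The light libraries lay between the controls (log2 fold change 0.01 ± 0.17, edgeR adjusted p = 0.982), and DESeq2 gave the opposite sign. Trim25 and Stat2 had the highest control levels per kilobase of exon of the 39 genes, with 11.9 and 11.5 CPM per kilobase. Trim30a, which dampens inflammatory signalling, had 8 and 9 control counts, 43 and 292 after light and 13 and 29 with minocycline (3.76 ± 1.00, edgeR adjusted p = 0.0835). Sp100 and Sp110 encode proteins of nuclear bodies, and both rose. Sp100 went from 8 and 5 counts to 22 and 53 (2.05 ± 0.54, edgeR adjusted p = 0.0369) and had 17 and 21 with minocycline. Its rise did not pass in the edgeR fit of all 6 libraries (adjusted p = 0.054) or with DESeq2 (adjusted p = 0.116). Sp110 had 1 and 0 control counts, 11 and 48 after light (edgeR adjusted p = 0.022) and 3 and 0 with minocycline, a ratio of light to control of 43.7 (95% counting interval 7.54 to 1754) that was 18.2 without light library 2 and 64.4 without light library 1.

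Of the remaining 6 genes, Ifi27l2a, Ifi35 and Rtp4 rose. Ifi27l2a, a small interferon-inducible membrane protein gene, went from 5 and 6 counts to 63 and 291, with 21 and 48 under minocycline, and had the largest change among the called genes with more than 3 counts in both controls (4.48 ± 0.78, edgeR adjusted p = 0.0216). Ifi35 went from 53 and 56 counts to 135 and 319 (1.59 ± 0.35, edgeR adjusted p = 0.0219) and had 119 and 121 with minocycline. Rtp4, a receptor chaperone, went from 8 and 3 counts to 31 and 126 (3.31 ± 0.72, edgeR adjusted p = 0.0259) and had 10 and 25.

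Ifi44 had 2 and 5 control counts, 65 and 435 after light and 14 and 63 with minocycline. The light libraries were far apart, at 3.80 and 20.7 CPM, and the fitted change of 5.60 ± 1.30 did not pass (edgeR adjusted p = 0.0801). Lgals3bp, a secreted glycoprotein gene, had 61 and 76 counts, 367 and 1439 after light and 206 and 389 with minocycline (3.22 ± 0.75, edgeR adjusted p = 0.0994). Xaf1, a gene linked to cell death, had 39 and 55, 93 and 292, and 77 and 45 counts (1.55 ± 0.45, edgeR adjusted p = 0.0593).

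**Figure D3:**
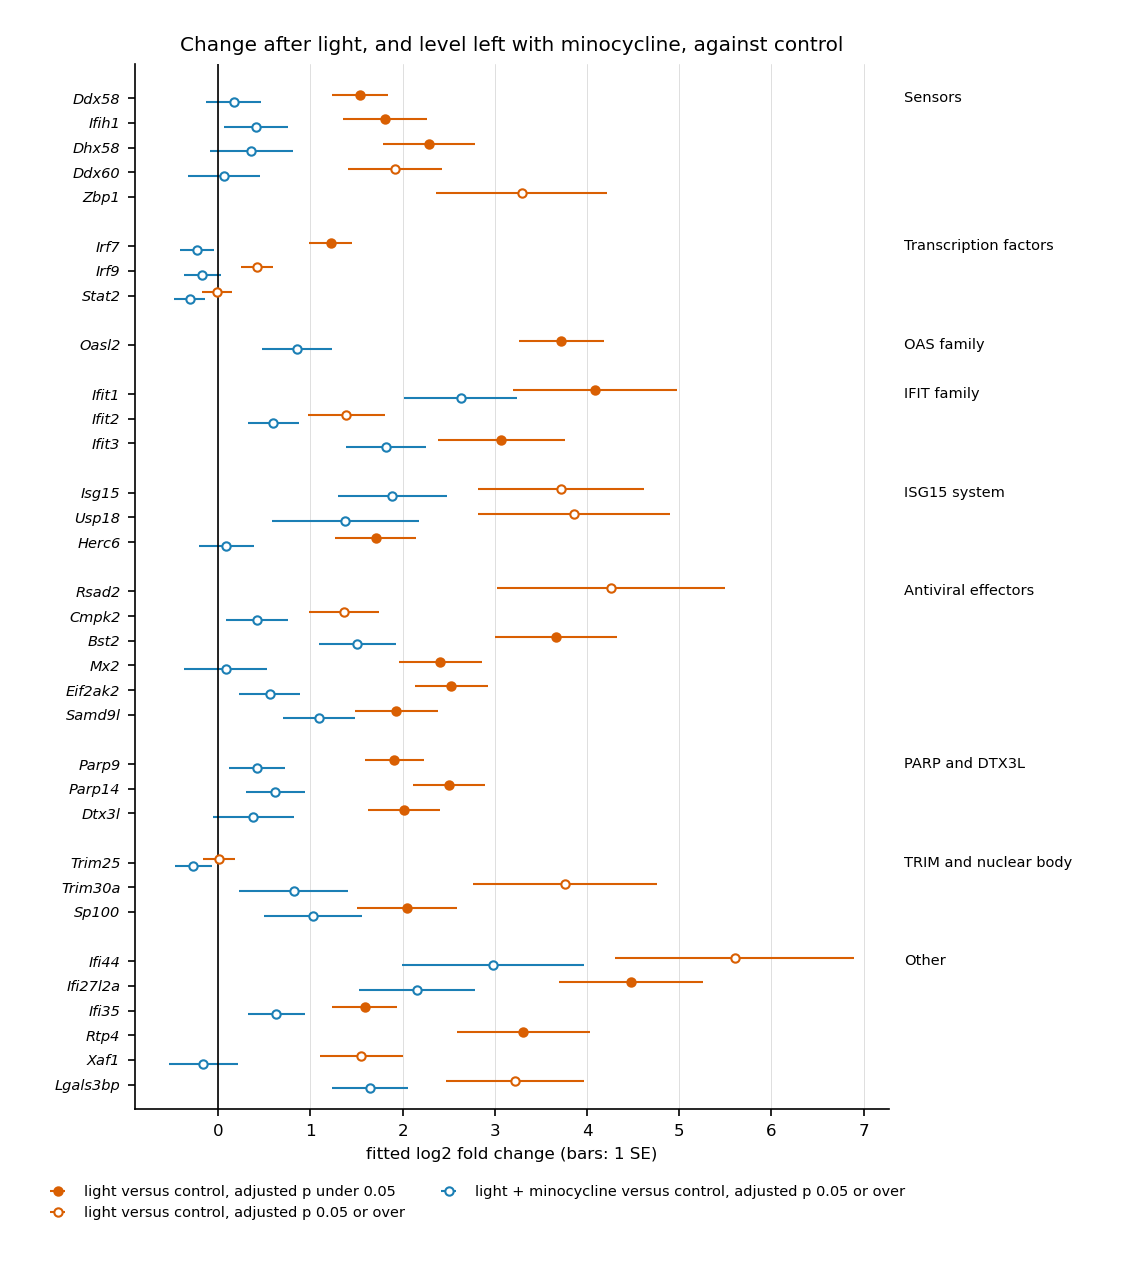
Fitted log2 fold change against control for light (orange) and for light with minocycline (blue), for the genes tested after light other than Ifi204 and Sp110, whose controls were at the limit of detection. Bars are 1 SE, filled symbols have an edgeR adjusted p under 0.05, and a gene without a blue symbol was not tested with minocycline. Among the genes called after light, Ifi27l2a and Ifit1 lie farthest to the right, and Stat2 and Trim25 lie at 0.

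The ligands of the pathway were almost unread. Of 16 type I interferon genes in the table, 15 had 0 counts in all 6 libraries, and Ifnb1 had 1 count in each light library. Ifng, the type II interferon, was at 0 throughout, and of the type III genes Ifnl2 had 1 count in light library 2 and Ifnl3 had 0. A count of 0 allows up to 3 counts, or 0.142 to 0.175 CPM in the light libraries, so low levels were not detectable at this depth. The receptor chains did not move as one. Ifnar1 had 65.6 and 64.2 CPM in control, 61.0 and 69.9 after light and 60.4 and 65.8 with minocycline (log2 fold change after light 0.02 ± 0.15, edgeR adjusted p = 0.954). Ifnar2 rose by 2.20 ± 0.35 (edgeR adjusted p = 0.0101), from 34 and 35 counts to 137 and 301, and had 93 and 82 with minocycline. Il10rb, a chain of the type III interferon receptor that IL-10 also uses, rose by 2.64 ± 0.52 (edgeR adjusted p = 0.0221), and Ifngr2, a chain of the type II receptor, by 0.89 ± 0.24 (edgeR adjusted p = 0.0383). In the edgeR fit of all 6 libraries Ifngr2 did not pass (adjusted p = 0.0652), while with DESeq2 it did (adjusted p = 0.0234). Ifngr1 (0.01, edgeR adjusted p = 0.988) and Ifnlr1 (1.72, edgeR adjusted p = 0.106) did not pass.

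Over 51 further genes of interferon production and signalling, 26 had enough counts for the test of light against control, 8 rose and 1 fell, where 7.52% and 3.8% of all genes tested did. Besides the receptors, Irf1, a transcription factor shared by type I and type II interferon, rose by 1.80 ± 0.33 (edgeR adjusted p = 0.0132). Tmem173, encoding STING (2.17, edgeR adjusted p = 0.0332), the kinase gene Ikbke (2.88, edgeR adjusted p = 0.0469) and the RNA receptor gene Tlr3 (1.80, edgeR adjusted p = 0.0181) rose among the genes of nucleic acid sensing. Tmem173 did not pass in the edgeR fit of all 6 libraries (adjusted p = 0.0515) or with DESeq2 (adjusted p = 0.112), whereas Ikbke and Tlr3 passed in both. Cd274, the gene of the checkpoint ligand PD-L1, rose by 1.63 (edgeR adjusted p = 0.0294). Irf3, the factor that starts interferon transcription, fell by 0.74 on the log2 scale (edgeR adjusted p = 0.0152), from 86.2 and 88.9 CPM to 53.9 and 51.0 CPM, with 64.3 and 82.3 CPM under minocycline. Of the 6 genes that restrain the response, 0 were called by edgeR and 1 was higher at an unadjusted p under 0.05. Over all 14349 genes tested, 2371 were higher at that threshold, so these 6 genes did not stand apart. Cxcl10, an interferon-induced chemokine gene, had 6 and 1 counts in the controls, 10 and 36 after light and 1 and 0 with minocycline. It had too few counts for the test after light, and with minocycline against light it missed the threshold (edgeR adjusted p = 0.0709) but passed in the edgeR fit of all 6 libraries (adjusted p = 0.0447) and with DESeq2 (adjusted p = 0.0359). Cxcl9, a related chemokine gene, had 1 count in all.

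Markers of microglia and macrophages moved with the set after light. All 10 were higher in both light libraries than in both controls, where 30.6% of all genes tested were. Of these markers, 5 rose at an edgeR adjusted p under 0.05, beside 7.52% of all genes tested. Their summed level was 29.1 and 34.7 CPM in the controls and 229 and 729 CPM after light. Light library 2 exceeded light library 1 for 39 of 39 interferon-stimulated genes and for 10 of 10 of these markers, while 50.5% of all genes tested were higher in library 2. The median log2 ratio of library 2 to library 1 was 1.33 for the set and 1.53 for the markers. With minocycline the microglial markers summed to 62.7 and 27.2 CPM. Markers of Müller cells and astrocytes moved as well, with 2 of 5 called higher after light, beside 7.52% of all genes tested. Gfap, the filament gene of reactive glia, had 16.8 and 25.6 CPM in the controls, 65.5 and 105 CPM after light and 24.4 and 17.7 CPM with minocycline (log2 fold change after light 2.02 ± 0.29, edgeR adjusted p = 0.0154). Markers of monocytes and neutrophils were low, and their sum was also highest in the light libraries. The 6 in the table summed to 0.64 and 0.423 CPM in the controls, 1.75 and 2.18 CPM after light and 0.914 and 0.477 CPM with minocycline, and all had too few counts for the test after light. Ccr2, a receptor gene of inflammatory monocytes, had 0 counts in both controls, 10 and 12 after light and 1 and 0 with minocycline, and S100a8, a neutrophil gene, had 1 and 0, then 7 and 24, then 4 and 2. Lymphocyte markers summed to 0.689 to 1.76 CPM, with Cd3e and Ms4a1 at 0 in all libraries. Markers of plasmacytoid dendritic cells, which are strong producers of type I interferon, summed to 1.13 to 2.22 CPM. Most of this sum was 1 gene, Siglech, at 1.01 to 2.22 CPM. Klra17 and Ly6d were at 0 in all libraries, Cox6a2 had at most 9 counts and Ccr9 at most 1, so the list gives little sign of these cells. The part of these cells in the change of the set was not tested.

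With minocycline the interferon-stimulated genes were lower than after light alone, but the call depended on the fit. Of the 39 genes, 37 had enough counts for the test, 0 passed at an edgeR adjusted p under 0.05, and 26 had an unadjusted p under 0.05, all of them lower with minocycline, where 12.1% of all genes tested were lower at that threshold. Over all 14750 genes tested only 6, or 0.0407%, were called lower. The median fitted log2 fold change was -1.73 over the 37 genes and 0.01 over all genes tested, and 36 of the 37 were lower, the exception being Oas2. Both minocycline libraries lay below both light libraries for 32 of the 37, and 28.7% of all genes tested did so. Here too, some low genes entered the test only through their level after light, which favours a difference. The light libraries are the same as in the comparison of light with control, so the 2 comparisons are not independent.

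A fit of all 6 libraries together called 7 of 37 genes lower, beside 2.4% of all genes tested. They were Ddx58, Irf7, Oasl2, Mx2, Eif2ak2, Parp9 and Parp14, and among them the adjusted p ran from 0.0279 for Oasl2 to 0.0447 for Ddx58 in that edgeR fit. DESeq2 called 20 of 39 lower, beside 4.71% of all genes given an adjusted p. All remaining libraries were also fitted together with 1 left out. The group of 1 library has no spread of its own there, and the spread comes from the other groups. Set against the fit of 4 libraries, these counts therefore do not show the weight of a single library. Without light library 1, edgeR called 30 of 39 genes lower (5.5% of all genes tested). Without minocycline library A it called Oasl2 and Irf7 (2 of 39, beside 1.26%). Without light library 2 it called 0 of 37, beside 0.35%. In that last fit 13 were lower at an unadjusted p under 0.05, beside 5.39% of all genes tested, and the median was -1.0.

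Oasl2 had a log2 fold change with minocycline against light of -2.88 ± 0.46 (edgeR adjusted p = 0.0698) and Mx2 of -2.36 ± 0.46 (edgeR adjusted p = 0.0709). Irf7 had -1.47 ± 0.24 (edgeR adjusted p = 0.0698). In the IFIT family the values were -1.47 ± 0.80 for Ifit1, -1.27 ± 0.64 for Ifit3 and -0.81 ± 0.40 for Ifit2, and none of them had an unadjusted p under 0.05. Sp110, with 59 counts in the light libraries and 3 with minocycline, had a ratio of 0.0464 (95% counting interval 0.0093 to 0.142), which was 0.112 without light library 2 and 0.0315 without light library 1.

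The level left with minocycline was set against each control. Of the 39 genes, 30 could be tested against control and 0 passed at an edgeR adjusted p under 0.05, beside 0.162% of all genes tested called higher. At an unadjusted p under 0.05, 8 of the 30 were higher and none lower, where 5.39% of all genes tested were higher and 1.62% lower, and DESeq2 called Lgals3bp alone (log2 fold change 1.63), beside 1.09% of all genes given an adjusted p. The median fitted log2 fold change was 0.58 over these 30 genes and 0.02 over all genes tested, and 25 of the 30 were above 0. Both minocycline libraries lay above both controls for 16 of the 30, and 15.9% of all genes tested did so. These comparisons share the control and minocycline libraries with those above.

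Library by library, the median log2 ratio over all 39 genes was 0.33 for minocycline A over control 1 and 0.56 for A over control 2, and 0.83 for B over control 1 and 0.84 for B over control 2. In library A, 29 genes were above control 1 and 27 above control 2. In library B it was 33 and 32. At least 2-fold above control were 11 and 10 genes in library A and 18 and 17 genes in library B. Among the 28 genes with more than 3 counts in both controls these were 5 and 5 genes in library A and 9 and 9 in library B. For scale, the same ratio after light was 1.52 to 1.59 for light library 1 and 2.68 to 2.92 for light library 2.

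Among these 30 genes the highest levels left, relative to control, belonged to Ifi44, Ifit1, Ifi27l2a, Isg15 and Ifit3. Oas2 and Oas3, which were too low for this test, had the ratios of 15.2 and 16.2 given above. The fitted log2 fold changes against control were 2.98 ± 0.99 for Ifi44 (edgeR adjusted p = 0.552), 2.63 ± 0.61 for Ifit1 (edgeR adjusted p = 0.199), 2.16 ± 0.63 for Ifi27l2a (edgeR adjusted p = 0.374), 1.89 ± 0.59 for Isg15 (edgeR adjusted p = 0.439) and 1.82 ± 0.43 for Ifit3 (edgeR adjusted p = 0.203). None passed. Ifi44 shows how far the libraries were apart, with 0.609 CPM in A and 3.34 CPM in B against 0.142 and 0.352 CPM in the controls. At the other end stood Stat2 (-0.31 ± 0.17, edgeR adjusted p = 0.742), Trim25 (-0.27 ± 0.20, edgeR adjusted p = 0.749) and Irf7 (-0.23 ± 0.18, edgeR adjusted p = 0.752), each with a mean CPM below that of control.

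As a share of the difference between light and control in mean CPM, a median of 11.2% was left with minocycline over the 36 genes that were at least 2-fold higher after light. Under 20% was left for 26 genes, 20 to 50% for 8 genes, and more than 50% for Oas2 and Oas3 only. Irf7 (-12.8%) and Xaf1 (-7.19%) were below control. By role, the sensors had a median of 6.82% left (0.483 to 11.5%), and the PARP and DTX3L genes 10.7% (8.37 to 10.8%). The IFIT genes had 31.8% left (29.2 to 33.1%), Samd9l 38.2% and Sp100 32.3%. The share was 6.62% at the median in library A and 14.8% in library B. These shares rested on light library 2. With light library 1 alone as the upper level, a choice made after seeing the data, the median over the 36 genes was 33.9%, with 13 genes under 20%, 14 from 20 to 50% and 9 over 50%. With light library 2 alone it was 7.26%. Against light library 1 the IFIT genes had 87.3 to 94.9% left, Samd9l had 82.7%, and the sensors had a median of 21.6%, with 28% for Ifih1 and 38.3% for Ifi204. The PARP and DTX3L genes had a median of 17.8%.

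**Figure D4:**
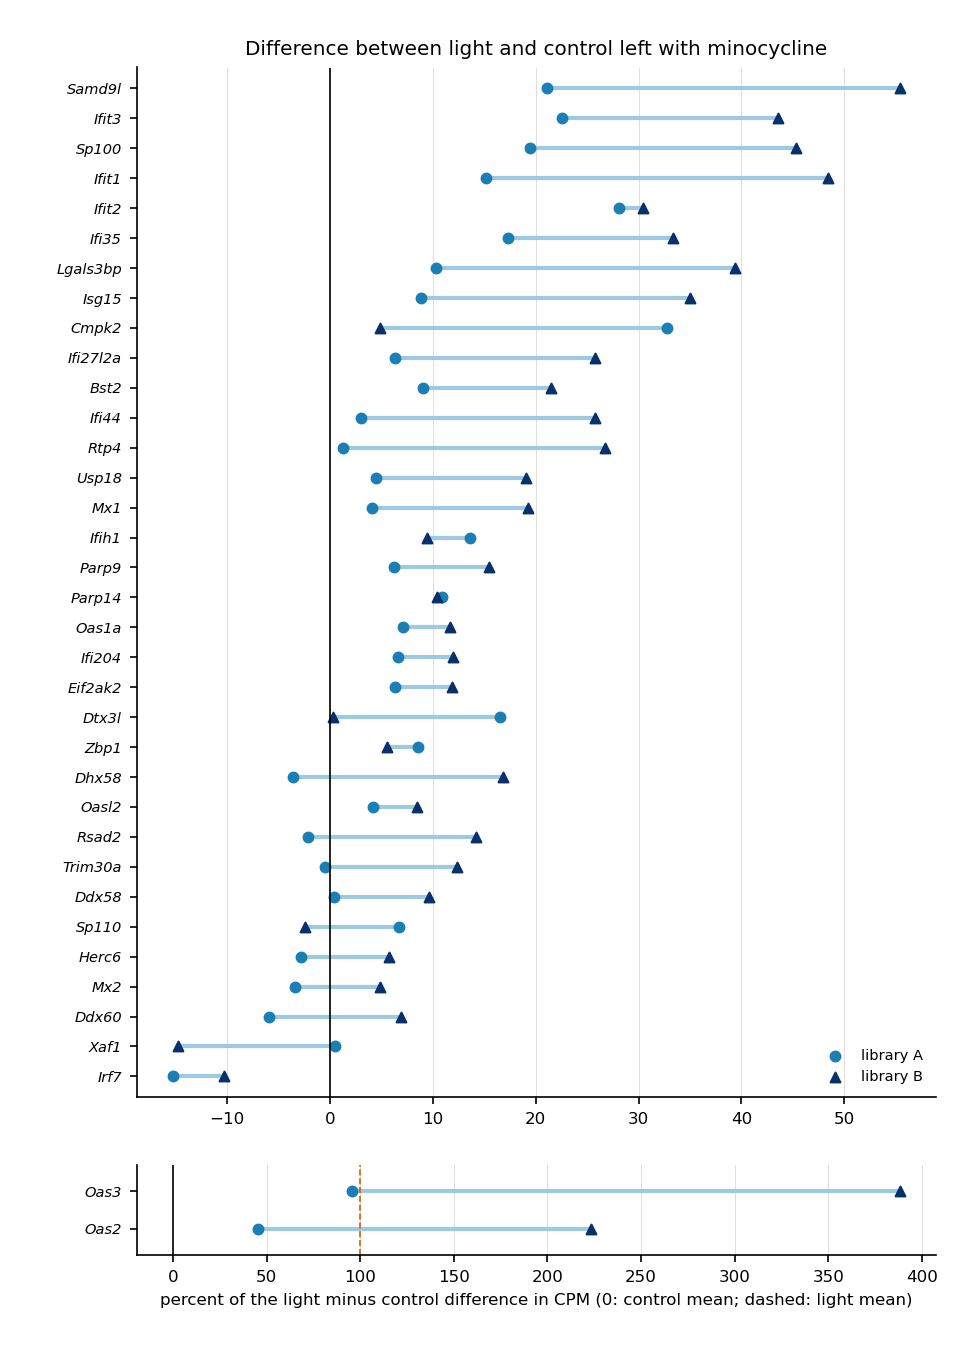
Share of the difference between light and control left in minocycline library A (circles) and B (triangles), for the 36 genes at least 2-fold higher after light, sorted by their mean. The horizontal axis gives percent of the light minus control difference in CPM, 0 being the control mean, and Oas2 and Oas3 have an axis of their own, where the dashed line at 100 is the light mean. The shares of Oas2 in library B (223%) and Oas3 in library B (388%) exceed the light mean.

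The minocycline libraries differed from each other in a direction of their own. Library B was above library A for 32 of the 39 interferon-stimulated genes, with a median log2 ratio of 0.45, while 49.5% of all genes tested were higher in B. The exceptions were Ifih1, Zbp1, Cmpk2, Parp14, Dtx3l, Sp110 and Xaf1. Microglial markers went the other way. Of 10, 9 were lower in B, with a median log2 ratio of -1.03, and their summed level was 62.7 CPM in A and 27.2 CPM in B. Cx3cr1, the fractalkine receptor gene of microglia, had 97 counts in A and 32 in B, and C1qa, a complement gene, 416 and 116. Genes of pigment cells were higher in B (5 of 5, median log2 ratio 2.23), and of 5 corneal genes 3 were. Of the other markers, those of Müller cells and astrocytes were lower in B (5 of 5, median log2 ratio -0.45), while 6 of 7 rod genes (0.11) and 4 of 5 endothelial genes (0.26) were higher in B. The part of these cells and tissues in the level left with minocycline was not tested.

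**Figure D5:**
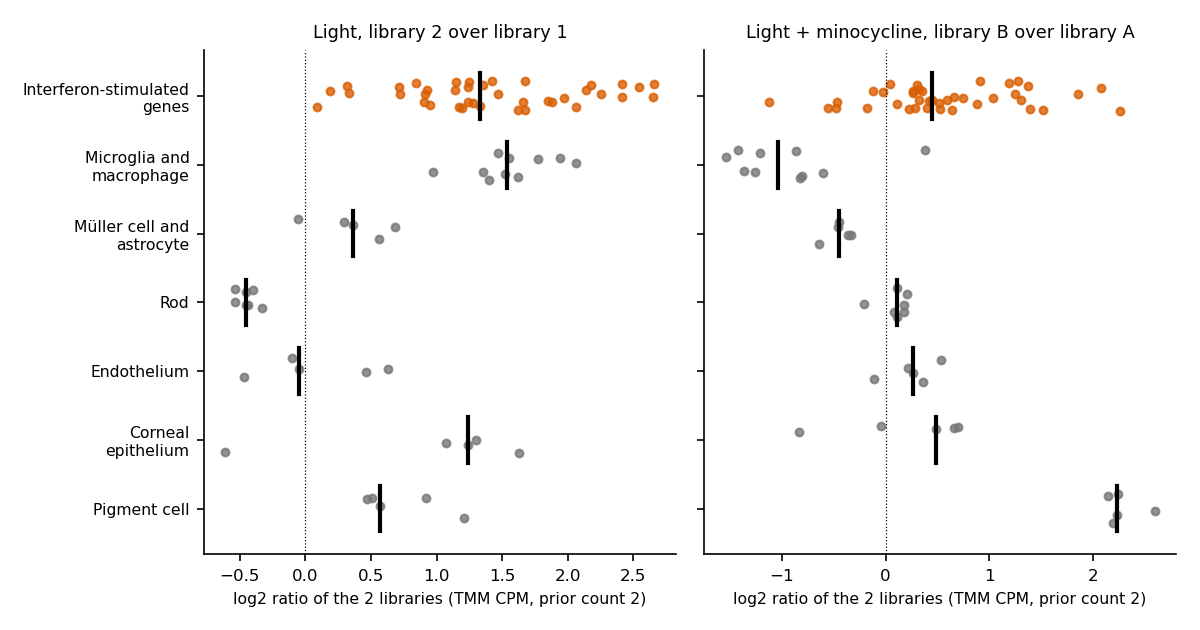
Log2 ratio of the 2 libraries of a group for each gene of the interferon-stimulated set (orange) and of marker lists for 6 cell types (grey), with black bars at the medians. The left panel gives light library 2 over 1 and the right panel minocycline library B over A. After light, the set (median 1.33) and the microglial markers (1.53) were both higher in library 2, whereas with minocycline the set was higher in B (0.45) and the microglial markers were lower (-1.03).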

How the data were processed

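Retinal RNA of 6 mouse samples was sequenced as stranded mRNA libraries. Per the labels and the methods of the study, the authors aligned reads to mm10 (GRCm38) with STAR in the RNA Express workflow and used DESeq2. Versions, annotation and use of strand in counting are not given in the sources used here. The deposited values are counts per gene, whole numbers that sum to 15205930 to 22856922 per library, although the data statement of the study calls them normalized. No value column was left unused (0), and 0 rows lacked a gene name.

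Each comparison was fitted on its own 4 libraries in edgeR 4.0.16 under R 4.3.3 (low counts removed by filterByExpr, scaling by TMM, robust quasi-likelihood F test, Benjamini-Hochberg adjustment over all genes tested, call at an adjusted p under 0.05 and separately at a log2 fold change of at least 2). CPM are scaled by TMM, with a prior count of 2 on the log2 scale, and groups at 3 counts or fewer per library get a ratio with a counting interval (a bound at 3 counts where all are 0) in place of a fitted fold. By rule, counts in every library were given for the member with the most counts and the one with the largest change in each role, members at 3 counts or fewer in both controls, members not higher after light, and the 5 highest and 3 lowest against control with minocycline, and most other members were added. DESeq2 1.42.0, other scalings, filters, thresholds, a replicate block and each library left out were tried. The fit was tested on simulated data. Members, role groups, marker and pathway lists were chosen with earlier results of these data known. Coordinates are from GENCODE on GRCm38 and promoters from RefSeq on GRCm38.p6. Comparisons made by the authors were not used. With 2 libraries a group, outlying libraries could not be tested for.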

Additional observations from a re-analysis of the deposited data

How the results depend on the processing

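The median log2 fold change of the set kept its sign under every alternative tried, at 1.80 to 2.99 for light against control, -2.26 to -1.0 for minocycline against light and 0.41 to 0.82 for minocycline against control. The number of interferon-stimulated genes called after light (20, with 13 past 4-fold) was 31 and 23 with total library size in place of TMM, which also moved the median of all genes by 0.24 on the log2 scale and the genes called higher over the whole table from 1079 to 1930 (13.5%), 33 and 22 with DESeq2 (7.68% of all genes given an adjusted p), and 1 and 1 at an adjusted p under 0.01 (0.481%). Past 4-fold it was 8 with at least 10 counts in every library, where only 23 genes of the set were tested, against 13 of 35 in the main fit. Without robust estimation it was 21 of 35, and 7.53% of all genes tested were called higher at any fold. The replicate number does not pair the samples (correlation of the deviations -0.011 over 14713 genes), and a replicate block gave 32 and 20, with 1668 genes (11.6%) called higher over the whole table. The comparisons with minocycline could not be blocked, since both minocycline columns carry replicate number 1. Leaving out each library in turn gave 0 to 34 calls of 37 to 39 genes tested, 0 to 29 past 4-fold, and 0 to 10 for the pathway genes (8 in full, 0 at an adjusted p under 0.01). In these fits 0.0131 to 7.6% of all genes tested were called higher. With minocycline against light (0 calls) the fits without a filter, with all 6 libraries, with DESeq2 and at an adjusted p under 0.1 called 9, 7, 20 and 10 genes (2.63, 2.4, 4.71 and 4.1% of all genes tested), 3, 3, 9 and 3 past 4-fold, and 5, 1, 6 and 5 pathway genes. Leaving out libraries gave 0 to 30 of 37 to 39 genes tested, 0 to 22 past 4-fold and 0 to 7 pathway genes. The share of all genes tested that was called lower moved too, with 5.5% without light library 1 and 0.35% without light library 2. Where a compared group is left with 1 library, its spread comes from the other groups, so these ranges do not measure the weight of a library. Against control (0 calls) 2 genes, Ifit1 and Ifit3, were called without a filter (1.01% of all genes tested), 1 of them past 4-fold, and 1 with DESeq2 (1.09%). The median residual over the 4 pairs of libraries (0.70 on the log2 scale) ran from 0.45 without minocycline B to 0.84 without minocycline A. The sign turned for genes near 0. Stat2 after light was 0.23 with total library size, 0.03 with upper quartile, 0.02 with at least 10 counts, and -0.19 to 0.14 without single libraries. Trim25 was -0.01 with DESeq2 and -0.21 to 0.24 without single libraries. With minocycline against light, Oas2 was -1.01 to 1.44 without single libraries. With minocycline against control the values without single libraries were -0.10 to 0.40 for Ddx58, -0.21 to 0.76 for Dhx58, -0.41 to 0.60 for Ddx60, -0.09 to 0.22 for Herc6, -0.23 to 0.31 for Mx2, -0.06 to 0.86 for Dtx3l, -0.09 to 1.38 for Trim30a and -0.44 to 0.05 for Xaf1. The cause of these changes was not tested.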
